A study of Drosophila melanogaster with 9 samples.

Results

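The protein-coding genes of the *Drosophila melanogaster* Y chromosome were followed in testes of 3 genotypes. The 10 genes considered were *kl-2*, *kl-3*, *kl-5*, *ORY*, *Pp1-Y1*, *Pp1-Y2*, *CCY*, *ARY*, *WDY* and *PRY*, and a probe set was taken when its annotated symbol, with synonyms resolved, was one of these. This gave 9 probe sets for 7 genes, out of 18769 probe sets other than controls and 11941 genes with a probe set of their own. *kl-2* had 3 probe sets, and the other 6 genes had 1 each. *Pp1-Y1*, *CCY* and *PRY*, which encode a phosphatase, a coiled-coil protein and a polycystin-related protein, had no probe set assigned to them alone and are not analysed here. The *WDY* probe set was annotated with *CG40551*, a synonym of *WDY*.

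The Y chromosome of this fly is not needed for viability or for male sex, but males without it are sterile. Its fertility genes are transcribed in the germline, in primary spermatocytes, and several span introns of unusual length filled with satellite repeats. The transcription units of *kl-5*, *kl-3* and *ORY* form the Y-loops, large lampbrush-like structures seen in spermatocyte nuclei. *kl-2*, *kl-3* and *kl-5* encode heavy chains of axonemal dynein, the motor of the sperm tail. In arrays of whole testes, fewer cells of a type and less RNA in each cell cannot be told apart.

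Total RNA from testes of adult males 0 to 1 day old, pooled over dissections with the accessory glands removed, was measured on *Drosophila* arrays from Affymetrix, 3 per genotype. Control males were w; tinRNAi/+; bamGal4VP16/+, kept at 29°C, a driver of the early male germline with a hairpin against *tin*, and the labels call their testes normal. The *aly* males were aly[5] red[1] e[1], kept at 27°C, and lack a subunit of tMAC, a testis transcription activator complex. The *Nxt1* males were w; Nxt1[z2-0488]/Nxt1[DG05102], kept at 25°C, with an amino acid substitution over an insertion in the gene of an mRNA export factor. Both mutants are described by the study as meiotic arrest mutants, with stages only up to mature primary spermatocytes, so that spermatids were part of the control samples alone. Each genotype had its own culture temperature, and genotype and temperature cannot be told apart. Whether the 3 arrays of a genotype came from separate cultures is not given in the labels, so the p-values measure the spread between these arrays, which may be technical.

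The values are signal intensities on a linear scale made by the authors with RMA, and all differences are differences of mean log2 signals. The *aly* signal was 50.8 to 57.5 on the 3 *aly* arrays against 93.4 to 106 on the control arrays. The *Nxt1* signal was 808 to 940 on the *Nxt1* arrays against 344 to 351 on the control arrays, and with a substitution allele it does not check the labels. Low signals on such arrays have a floor, the level of probe sets that meet no transcript of the fly. The floor was read here on each array from 27 probe sets for bacterial transcripts. Their median was between 18.9 and 24.0, and the brightest of them reached 58.9 to 61.6 on control, 70.4 to 101 on those of *aly* and 50.0 to 59.7 on those of *Nxt1* testes. Between 34.6% and 50.4% of all probe sets lay at or under that brightest one, and a signal there is called "at the floor" below. Where all 3 arrays of a mutant were at the floor, the fall is also given as a bound, "at least N-fold", computed against the higher of the brightest bacterial probe set and the probe set's own signal on each array. Signals of different probe sets are not compared with each other.

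In control testes 7 of the 9 probe sets were above the floor on all 3 arrays, 1 for each of the 7 genes, and the other 2, both of *kl-2*, were at the floor on all 9 arrays. In *Nxt1* testes 8 of 9 probe sets passed the test as lower, 0 as higher and 1 did not pass (limma, Benjamini-Hochberg adjusted p under 0.05), where 24.2% of all probe sets passed as lower and 34.1% as higher. In *aly* testes 7 of 9 passed as lower, 0 as higher and 2 did not pass, with 20.0% of all probe sets lower and 44.0% higher. The 8 and 7 probe sets called lower had every mutant array below every control array, as did 32.1% and 20.8% of all probe sets, while 0 had every mutant array above, against 37.1% and 46.0%. The median log2 difference of the 9 probe sets was -3.07 in *Nxt1* and -3.02 in *aly* testes, against -0.01 and 0.21 over all probe sets. With every signal under the floor raised to it, the medians were -3.04 and -2.43. The floor was higher on the *aly* arrays, so these 2 medians are not compared. As fitted, 3 of 9 were 16 fold or more lower in each mutant, as were 2.59% and 5.70% of all probe sets, but the bounds set by the floor reached that size for 2 of 9 in *Nxt1* and 1 of 9 in *aly* testes.

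With arrays centred on ribosomal protein probe sets, the share of all probe sets called lower was 77.2% in *Nxt1* and 75.6% in *aly* testes, and 9 of 9 Y-linked probe sets were called lower in each mutant. These include the 2 *kl-2* probe sets at the floor on all 9 arrays. In *aly* testes the centring moved their log2 differences from -0.17 and -0.09 to -1.38 and -1.30, so these calls come from the shift of scale.

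**Figure D1:**
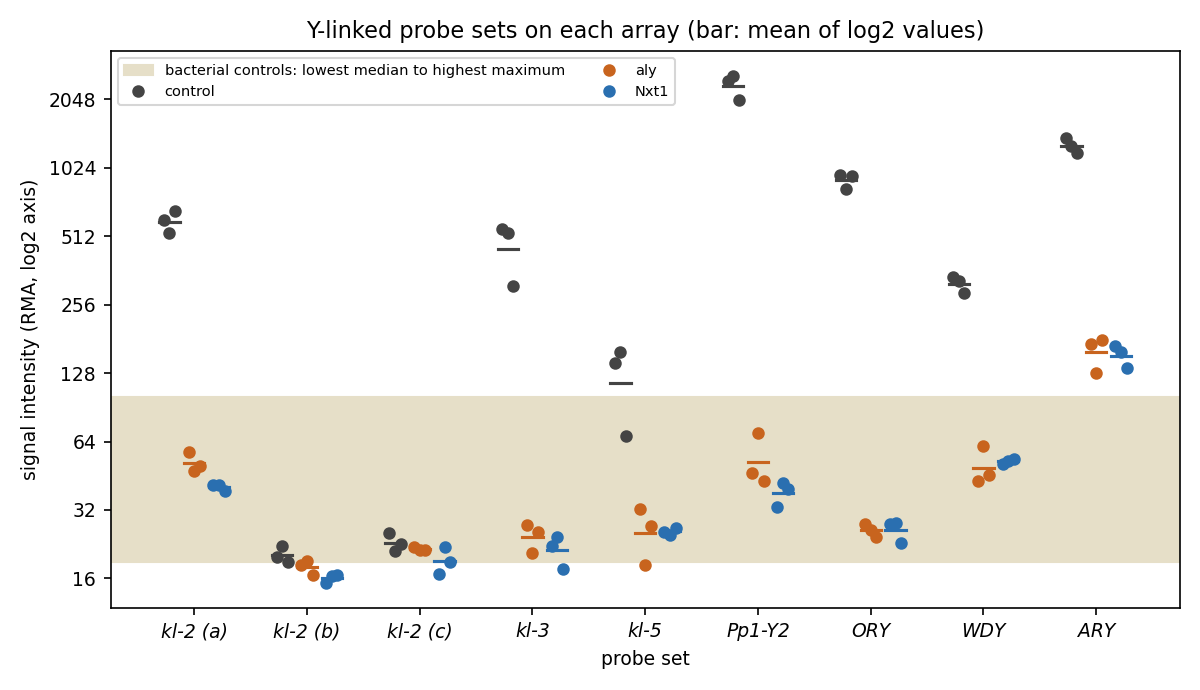
Signal intensity (log2 axis) of the 9 Y-linked probe sets on each of the 9 arrays, with 1 point per array, a bar at the mean of the log2 values of each genotype, and a band from the lowest median (18.9) to the highest maximum (101) of the bacterial probe sets over the arrays. The letters (a), (b) and (c) stand for the *kl-2* probe sets. Mutant arrays are inside or under the band for every probe set except *ARY*.

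The dynein heavy chains were measured by 5 probe sets. *kl-2* (a), the first of the *kl-2* probe sets, gave 601, 527 and 659 on the control arrays, 57.8, 47.6 and 50.2 on the *aly* arrays, and 41.3, 41.3 and 38.8 on the *Nxt1* arrays. Every mutant array was at the floor and far below every control array. The mean fell from 595 ± 66.2 (SD, n = 3) to 40.5 ± 1.43 in *Nxt1* testes, which was -3.87 on the log2 scale (standard error, SE, 0.10, adjusted p = 8.89e-10 by limma) and at least 10.8-fold. In *aly* testes it was 51.8 ± 5.29, a log2 difference of -3.52 (adjusted p = 7.68e-10) and at least 7.14-fold lower.

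The other *kl-2* probe sets reported no such fall, and neither was above the floor on any array. *kl-2* (b) gave 18.9 to 22.3 in control, 16.5 to 19.1 in *aly* and 15.4 to 16.6 in *Nxt1* testes. *kl-2* (c) gave 21.0 to 25.5, 21.2 to 21.9 and 16.8 to 22.0. *kl-2* (b) still passed the test as lower in *Nxt1* testes, with a log2 difference of -0.33 (adjusted p = 0.0102), and this call carries no bound since both groups were at the floor. *kl-2* (c) had a log2 difference of -0.27 (adjusted p = 0.0624) in *Nxt1* and -0.09 (adjusted p = 0.479) in *aly* testes.

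*kl-3* gave 550, 529 and 310 on the control arrays, 27.5, 20.6 and 25.6 on the *aly* arrays, and 22.3, 24.3 and 17.7 on the *Nxt1* arrays. All 6 mutant arrays were near the median of the bacterial probe sets, and control replicate 3 stood below the other control arrays. The log2 difference was -4.40 (SE 0.22, adjusted p = 5.05e-08) in *Nxt1* and -4.20 (adjusted p = 4.99e-08) in *aly* testes, falls of at least 8.20-fold and at least 5.41-fold. *kl-5* gave 142, 159 and 67.9 on the control arrays, 32.3, 18.4 and 27.2 on the *aly* arrays, and 25.7, 24.9 and 26.8 on the *Nxt1* arrays. Control replicate 3 was here close to the brightest bacterial probe set of its own array, which was at 58.9. The log2 difference was -2.16 (SE 0.30, adjusted p = 1.32e-04) in *Nxt1* and -2.19 (adjusted p = 1.06e-04) in *aly* testes, and the bounds of at least 2.11-fold and at least 1.39-fold are the smallest among the genes with one. With signals under the array median raised to it, *kl-5* no longer passed in *Nxt1* testes (log2 difference -0.31, adjusted p = 0.0916). With signals raised to the brightest bacterial probe set it no longer passed in *aly* testes (-0.47, adjusted p = 0.114).

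*Pp1-Y2*, which encodes a catalytic subunit of protein phosphatase 1, gave 2471, 2589 and 2034 on the control arrays, 46.6, 69.7 and 42.7 on the *aly* arrays, and 32.9, 42.0 and 39.4 on the *Nxt1* arrays. The control arrays were all bright, and the mutant arrays were all at the floor. The mean fell from 2365 ± 292 (SD, n = 3) to 38.1 ± 4.70 in *Nxt1* testes, a log2 difference of -5.96 (SE 0.18, adjusted p = 1.94e-09) and at least 43.0-fold. In *aly* testes it was 53.0 ± 14.6, a log2 difference of -5.51 (adjusted p = 1.69e-09) and at least 28.3-fold lower. These were the largest values among the 9 probe sets in each mutant, by log2 difference and by bound. Both values are set by the bright control signal and the floor, so the falls in RNA are not ranked by them.

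*ORY*, which encodes an occludin-related coiled-coil protein and corresponds to the fertility factor *ks-1*, gave 948, 822 and 943 on the control arrays. It gave 27.7, 26.1 and 24.5 on the *aly* arrays and 27.6, 28.0 and 22.8 on the *Nxt1* arrays. The mutant groups overlapped each other, at the floor, and neither overlapped the control group. The log2 difference was -5.12 (SE 0.10, adjusted p = 1.75e-10) in *Nxt1* and -5.11 (adjusted p = 6.97e-11) in *aly* testes, falls of at least 16.5-fold and at least 10.9-fold.

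*WDY*, which encodes a WD40-repeat protein and corresponds to the fertility factor *kl-1*, gave 339, 326 and 287 on the control arrays, 42.8, 61.1 and 45.4 on the *aly* arrays, and 50.9, 52.7 and 53.6 on the *Nxt1* arrays. It was at the floor on all *aly* arrays and above it on 1 of 3 *Nxt1* arrays, the one with the dimmest bacterial maximum. The log2 difference was -2.60 (SE 0.13, adjusted p = 5.25e-08) in *Nxt1* and -2.69 (adjusted p = 2.78e-08) in *aly* testes, where the bound was at least 3.82-fold.

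*ARY*, which encodes an aldehyde reductase, was the one member above the floor on all mutant arrays. It gave 1384, 1276 and 1188 on the control arrays, 172, 128 and 179 on the *aly* arrays, and 168, 158 and 135 on the *Nxt1* arrays. The mutant groups overlapped each other and were both well apart from control. The mean was 1282 ± 97.9 in control, 160 ± 27.8 in *aly* and 153 ± 16.9 in *Nxt1* testes (SD, n = 3 each). The fall was 8.38 fold in *Nxt1* (log2 difference -3.07, SE 0.14, adjusted p = 2.51e-08) and 8.11 fold in *aly* testes (-3.02, adjusted p = 1.83e-08), which left 11.9% and 12.3% of the control signal. A remaining signal was thus measured for *ARY* in both mutants, whereas for the other detected genes the remaining signal was at or close to the floor.

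**Figure D2:**
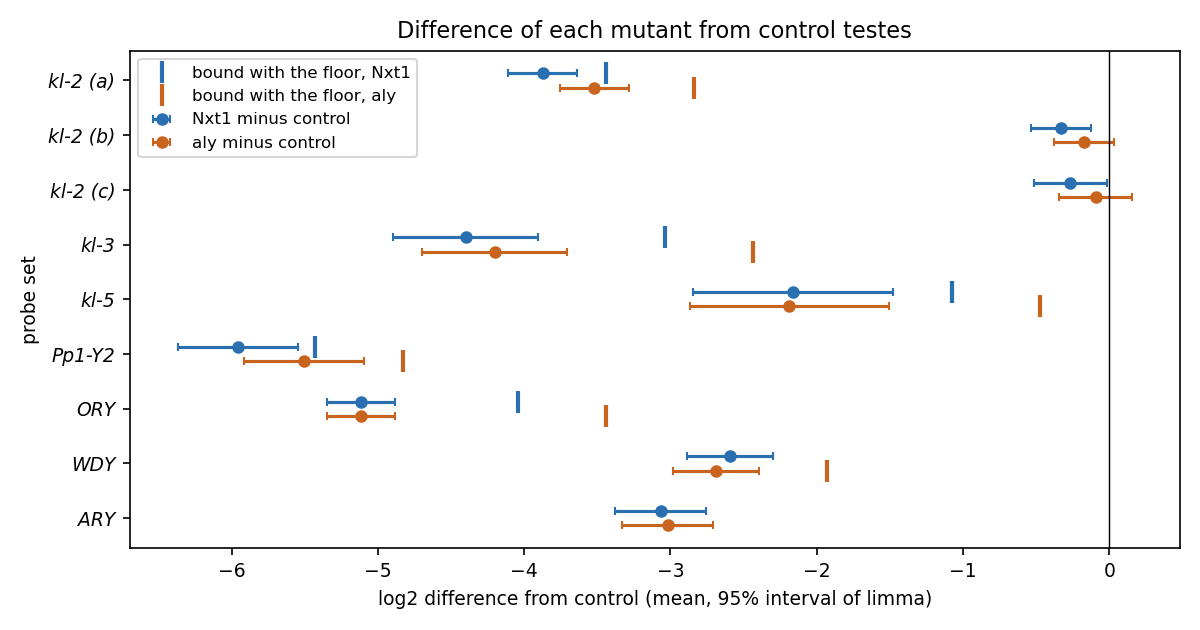
Difference of mean log2 signal between each mutant and control for the 9 Y-linked probe sets, as points with 95% intervals from limma (3 arrays per genotype), with vertical ticks at the bound set by the floor where all mutant arrays were at it and the control arrays above it. *Pp1-Y2* is farthest to the left in both mutants, *kl-2* (b) and (c) lie close to 0 and have no bound, and *ARY* needs none.

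The mutants were then compared with each other, to ask whether the Y-linked genes separate *Nxt1* from *aly* testes. Of the 9 probe sets, 1 passed as lower in *Nxt1* than in *aly* testes, 0 as higher and 8 did not pass, where 38.5% of all probe sets passed as lower and 20.6% as higher. The median log2 difference was -0.16 against -0.18 over all probe sets. The 1 probe set was *kl-2* (a), with a log2 difference of -0.35 (SE 0.10, adjusted p = 0.0163), but all 6 of its mutant arrays were at the floor, so the signals do not measure a difference in RNA. *Pp1-Y2* and *kl-2* (a) had every *Nxt1* array below every *aly* array, as did 42.3% of all probe sets. *Pp1-Y2* had a log2 difference of -0.45 (adjusted p = 0.0580), again at the floor. For *ARY*, the gene whose remaining signal could be compared, the log2 difference was -0.05 with a 95% interval from -0.36 to 0.27 (adjusted p = 0.781). For *ORY* the difference was 0.00 with an interval from -0.24 to 0.23, which describes the floor and not the gene. The sign of these values depended on the scale. The bacterial transcripts added at the hybridisation step (14 probe sets) had median signals of 963 to 1020 on control, 1736 to 2470 on those of *aly* and 741 to 871 on those of *Nxt1* testes, and with arrays centred on them all 9 probe sets passed as higher in *Nxt1* than in *aly* testes, as did 92.7% of all probe sets.

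In the order of the Release 6 plus ISO1 MT assembly the 10 genes lie as *Pp1-Y1*, *kl-5*, *PRY*, *kl-3*, *kl-2*, *ARY*, *WDY*, *Pp1-Y2*, *ORY* and *CCY*. Along this order the fitted log2 differences in *Nxt1* testes were -2.16 for *kl-5*, -4.40 for *kl-3*, -3.87 for *kl-2*, -3.07 for *ARY*, -2.60 for *WDY*, -5.96 for *Pp1-Y2* and -5.12 for *ORY*. Apart from *ARY* and *WDY*, all of these end at the floor in *Nxt1* testes, so that they are set by the control signal and the floor, and the falls are not ranked along the chromosome. One further Y-linked gene outside the 10, *Ppr-Y*, named for its likeness to regulators of protein phosphatase 1, had a probe set of its own. *Ppr-Y* gave 425, 416 and 451 on the control arrays, 26.2, 31.9 and 37.0 on the *aly* arrays, and 26.1, 28.4 and 26.5 on the *Nxt1* arrays. Its log2 difference was -3.99 (adjusted p = 1.44e-09, at least 7.87-fold lower) in *Nxt1* and -3.78 (adjusted p = 1.03e-09, at least 5.19-fold lower) in *aly* testes. A probe set annotated with *CG40245* stands in the gene table for either *WDY* or the pseudogene *CR45931*, and was therefore not counted as a member. *CG40245* gave 81.7, 77.7 and 52.6 on the control arrays, 47.4, 41.0 and 35.0 on the *aly* arrays, and 200, 197 and 173 on the *Nxt1* arrays. It fell in *aly* (log2 difference -0.77, adjusted p = 0.00298) and rose in *Nxt1* testes (1.45, adjusted p = 3.77e-05), although the rise did not pass with arrays centred on ribosomal protein probe sets (0.34, adjusted p = 0.0935).

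The control arrays were not alike for these genes. Control replicate 3 differed from the mean of control replicates 1 and 2 by -1.14 (log2) for *kl-5* and by -0.80 for *kl-3*, and only 5 and 27 of 18769 probe sets were as low there. For the other members detected in control testes, replicate 3 differed by between -0.31 (*Pp1-Y2*) and 0.23 (*kl-2* (a)), and over all probe sets the median difference was -0.01. The 7 other axonemal heavy chains differed by between -0.15 and 0.44. The probe sets at the 3′ and 5′ ends of control transcripts moved with this array, with 3′ to 5′ signal ratios of 3.34 for actin on replicate 3 against 2.46 and 2.09 on replicates 1 and 2, and 1.55 to 2.29 on the mutant arrays. For eIF-4a the ratio was 3.82 against 3.12 and 2.67, with 2.49 to 2.89 on the mutant arrays. The part of RNA quality in the low *kl-5* and *kl-3* signals was not tested. Without control replicate 3 the log2 difference of *kl-5* was -2.54 (adjusted p = 7.09e-06) in *Nxt1* and -2.57 (adjusted p = 5.25e-06) in *aly* testes, and that of *kl-3* was -4.67 (adjusted p = 4.93e-08) and -4.47 (adjusted p = 3.07e-08).

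**Figure D3:**
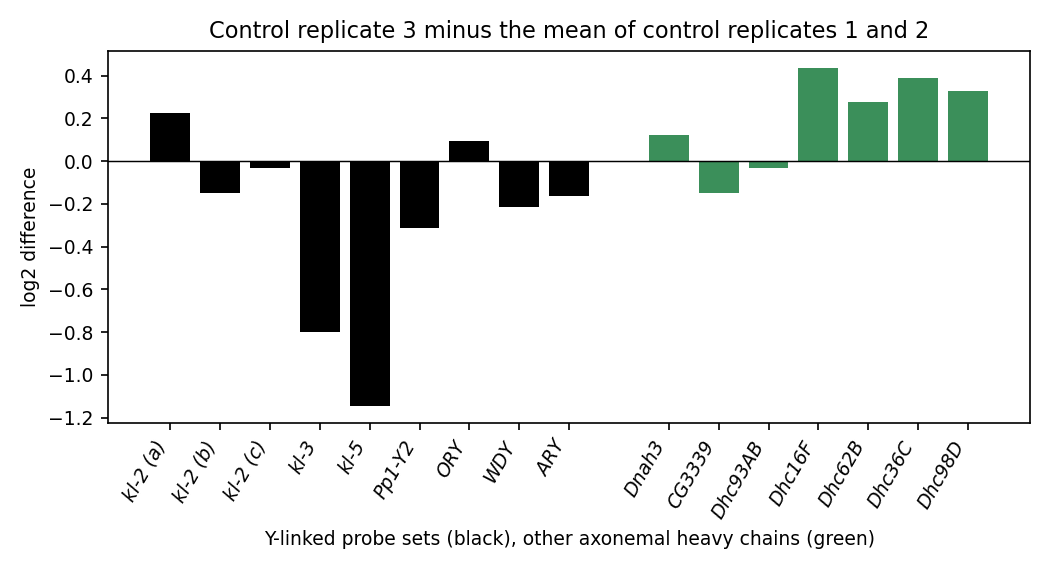
Log2 signal on control replicate 3 minus the mean of control replicates 1 and 2, for the 9 Y-linked probe sets (black bars) and for 7 axonemal dynein heavy chain genes on other chromosomes (green bars). *kl-5* (-1.14) and *kl-3* (-0.80) are lower on replicate 3, whereas the other heavy chains lie between -0.15 and 0.44.

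The dynein arms of the axoneme are built from heavy, intermediate and light chains. Apart from the Y-linked heavy chains, their genes lie on the X and the autosomes. For the counts in gene lists here and below, 24.2% of all probe sets were called lower and 34.1% higher in *Nxt1* testes. In *aly* testes these shares were 20.0% and 44.0%. Of 7 axonemal heavy chain genes on other chromosomes, 7 fell in *Nxt1* testes and 6 in *aly* testes, with median log2 differences of -2.13 and -2.69. The falls were -4.02 in *Nxt1* and -5.95 in *aly* testes for *Dnah3*, whose *aly* arrays were at the floor (at least 35.7-fold lower), -3.93 and -2.69 for *Dhc36C*, -2.13 and -3.91 for *Dhc16F*, and -2.13 and -2.73 for *Dhc62B*. With arrays centred on the hybridisation controls, 4 of the 7 fell in *Nxt1* testes. Between the mutants, 4 of these 7 were higher and 2 lower in *Nxt1* than in *aly* testes, against 20.6% and 38.5% of all probe sets. None of these 7 was at the floor on every array of both mutants. The 2 lower calls had log2 differences of -1.24 (*Dhc36C*) and -0.48 on the authors' scale. Centring on the hybridisation controls shifted all differences by 1.44, which reversed the sign of both. *Dnah3* was at least 2.21-fold higher in *Nxt1* than in *aly* testes (adjusted p = 3.57e-06), and *Dhc36C*, above the floor in both, had signals of 205 in *Nxt1* and 487 in *aly* testes. For *kl-2*, *kl-3* and *kl-5* no such comparison could be had, since their signals were at the floor in both.

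Of 11 genes for axonemal intermediate and light chains, 9 fell in each mutant, with fitted median log2 differences of -1.77 in *Nxt1* and -4.95 in *aly* testes. In this list 3 genes were at the floor throughout in *Nxt1* and 4 in *aly* testes, and with signals raised to the floor the medians were -1.77 and -4.79. The intermediate chain gene *Dic61B* had log2 differences of -3.67 in *Nxt1* and -5.97 in *aly* testes, the *aly* value being at the floor (at least 37.0-fold lower). The light chain genes *robl22E* and *robl62A* had -4.11 and -3.94 in *Nxt1* testes, and *ODA-Dnal1*, at the floor in both mutants, was at least 20.3-fold lower in *Nxt1* and at least 13.4-fold lower in *aly* testes. *Dnali1*, an inner arm light chain gene, had -1.77 in *Nxt1* and -6.25 in *aly* testes. Between the mutants 9 of 11 were called higher in *Nxt1* than in *aly* testes and 0 lower, against 20.6% and 38.5% of all probe sets. Of these 9 genes, 8 were not at the floor in both, the exception being *ODA-Dnal1*. With arrays centred on the hybridisation controls, 92.7% of all probe sets passed as higher. *CG9313* went the other way in *Nxt1* testes, with a log2 difference of 0.53 there and -1.16 in *aly* testes, and its rise turned into a fall of 0.58 with arrays centred on ribosomal protein probe sets. Of 6 genes for dynein arm assembly factors, 2 fell and 4 rose in *Nxt1*, and 3 fell and 3 rose in *aly* testes. The falls included *dtr* (-4.62 and -6.18) and *Dnaaf5* (-3.78 and -4.62). Of the rises, *Pih1D1* (1.78 in *Nxt1*) also passed under each centring, while *Nop17l*, *tilB* and *Zmynd10* did not pass as higher in *Nxt1* testes with arrays centred on ribosomal protein probe sets, and none of the 6 passed as higher in *aly* testes under any centring.

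The cytoplasmic dynein genes, which serve transport in most cells, were higher in both mutants for 4 of 4 measured on the authors' scale (median log2 differences 0.61 and 0.86), but with ribosomal protein centring 1 was higher and 3 were lower in *Nxt1* and 0 were higher and 2 lower in *aly* testes. With centring on *CG3927*, the reference gene of the study's q-RT-PCR, 2 were lower in each mutant, and with hybridisation control centring 0 were higher in *aly* testes. *ctp*, a light chain gene, had the largest difference in *Nxt1* testes, 1.62, and remained higher there under each centring.

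*Pp1-Y2* has 8 measured relatives among the catalytic subunits of protein phosphatase 1 on other chromosomes, of which 6 fell and 2 rose in *Nxt1* and 5 fell and 3 rose in *aly* testes. The 4 testis relatives all fell strongly, with log2 differences of -6.11 in *Nxt1* and -5.92 in *aly* testes for *PpY-55A* (at the floor in both, at least 56.3-fold and at least 37.1-fold), -5.02 and -5.17 for *PpN58A*, -4.51 and -5.10 for *PpD5*, and -4.69 and -4.35 for *PpD6*. The general subunit gene *Pp1alpha-96A* rose by 1.60 in *Nxt1* and 1.85 in *aly* testes and remained higher under each centring. *Pp1-87B* was higher by 1.24 and 1.07 on the authors' scale, but did not pass in *Nxt1* testes with ribosomal protein centring or in *aly* testes with any centring. *Pp1-13C* fell in *Nxt1* testes (-1.03) and was slightly higher in *aly* testes (0.30), where each centring turned it lower. *PpY-55A* had signals of 3081 in control, 52.2 in *aly* and 44.6 in *Nxt1* testes, so that the mutants could not be compared.

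**Figure D4:**
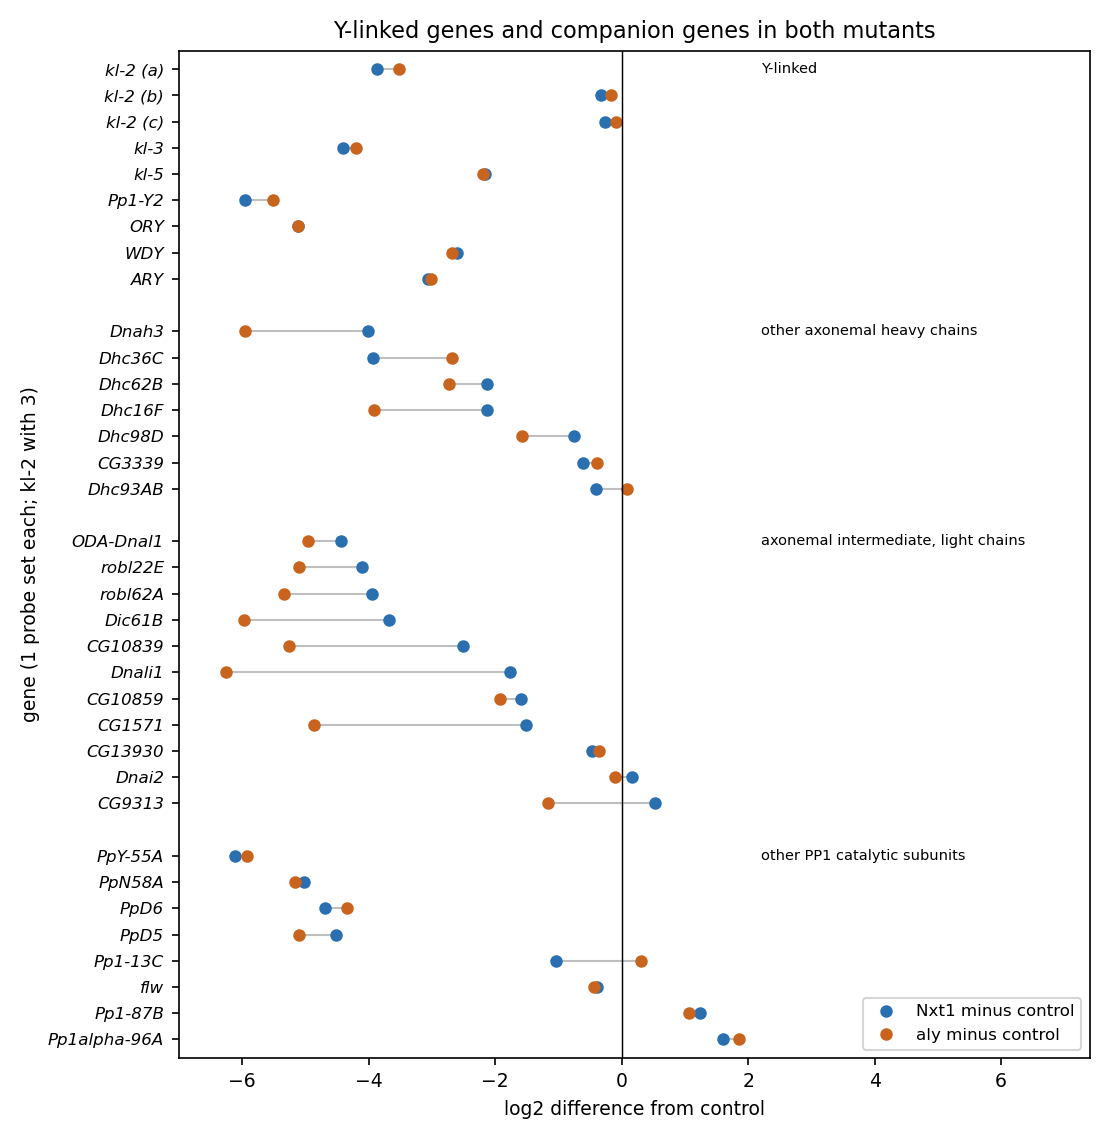
Log2 difference from control in *Nxt1* (blue) and *aly* (orange) testes for the 9 Y-linked probe sets, 7 other axonemal dynein heavy chain genes, 11 genes for axonemal intermediate and light chains and 8 genes for catalytic subunits of protein phosphatase 1. A grey line joins the values of a gene. Both mutants have the same control arrays, and for most Y-linked genes, *ODA-Dnal1* and *PpY-55A* both values end at the floor, while *Dnali1* has -1.77 in *Nxt1* and -6.25 in *aly* testes.

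Relatives of *PRY*, *ARY* and the factors that act on Y-loop transcripts were followed as well. The polycystin gene *Pkd2* was higher by 1.34 in *Nxt1* and 1.17 in *aly* testes on the authors' scale, and passed in neither with ribosomal protein centring nor in *aly* testes with any centring, while its relative *brv2* rose by 1.38 in *Nxt1* and fell by 3.53 in *aly* testes, to the floor (at least 6.37-fold), the rise again not passing with that centring. Of 4 aldo-keto reductase genes, *CG3397* fell by 2.95 in *Nxt1*, to the floor (at least 3.64-fold), and had -1.49 in *aly* testes, *CG2767* rose by 2.01 and 2.85 and remained higher under each centring, and *CG18547* had -0.07 in *Nxt1* testes and 0.79 in *aly* testes, where no centring kept it higher. Of 7 measured genes for RNA-binding proteins of the Y-loops and other factors needed for Y gene expression, 2 fell and 5 rose in *Nxt1* and 1 fell and 6 rose in *aly* testes. *bol*, a translation regulator that binds Y-loops, fell by 2.46 and 3.63. *maca*, needed in spermatocytes for Y-linked transcripts, fell by 1.15 in *Nxt1* testes and was at 0.28 in *aly* testes, where each centring turned it lower. *blanks* rose by 1.63 and 1.99 and remained higher under each centring. *Rb97D* (1.08 and 1.36), *heph* (1.14 and 0.52), *nonA* (1.51 and 2.21) and *dbe* (0.97 and 2.10) were higher on the authors' scale, but in *Nxt1* testes none of these 4 passed with ribosomal protein centring, and in *aly* testes *heph* turned lower and *Rb97D* did not pass under any centring.

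Some of the lists of markers for other cells moved with the genotypes, and others overlapped between them in their median signal. The comet and cup genes, of which 15 were measured, are known for transcription in spermatids. All were lower in both mutants (13 of 15 in *Nxt1* testes with hybridisation control centring, where *m-cup* and *f-cup* did not pass), with fitted median log2 differences of -2.90 in *Nxt1* and -5.12 in *aly* testes. Of these genes 1 was at the floor in *Nxt1* and 4 in *aly* testes, and with signals raised to the floor the medians were -2.90 and -4.79. *t-cup*, at the floor in both mutants, was at least 109-fold lower in *Nxt1* and at least 71.9-fold lower in *aly* testes. *w-cup* had log2 differences of -5.06 and -7.80, *hale* -4.68 and -0.93, and *sunz* -3.71 in *Nxt1* testes, with at least 32.9-fold in *aly* testes. Their median log2 signal was 12.55 to 12.60 in control, 7.50 to 7.96 in *aly* and 9.14 to 9.45 in *Nxt1* testes. Between the mutants 10 were higher in *Nxt1* than in *aly* testes and 4 lower, against 20.6% and 38.5% of all probe sets. Of the 4 lower, 3 were not at the floor in both. Among early germline genes *bam*, which drives differentiation of spermatogonia, was higher by 1.74 in *Nxt1* and 2.57 in *aly* testes and remained so under each centring. The list did not move as one. Of the 4 measured, 3 were called higher and 1 lower in *Nxt1* testes (*vas*, -0.49, limma adjusted p = 0.0138). In *aly* testes 2 were called higher and 0 lower. With ribosomal protein centring *ovo*, *bgcn* and *vas* were called lower in both mutants. The median log2 signal of the 4 early germline genes was 6.57 to 6.80 in control, 7.65 to 7.98 in *aly* and 7.20 to 7.42 in *Nxt1* testes, though 2 of the 4 were at the floor in both mutants. The 13 accessory gland genes had median log2 signals of 4.91, 11.2 and 11.7 on control replicates 1, 2 and 3, 11.9 to 13.4 in *aly* and 12.3 to 13.8 in *Nxt1* testes. The 5 cyst and hub cell genes had medians of 5.71 to 6.08 in control, 5.76 to 6.10 in *aly* and 5.66 to 6.29 in *Nxt1* testes. These medians were close to the floor, but the genes did not move as one. Of the 5, 2 were called lower and 2 higher in *Nxt1* testes, and 1 lower and 1 higher in *aly* testes. With ribosomal protein centring each was called lower in both mutants. Throughout a genotype, 3 were at the floor in *aly* and 1 in *Nxt1* testes. The 3 muscle genes had medians of 8.32 to 8.83 in control, 9.22 to 9.46 in *aly* and 8.64 to 9.31 in *Nxt1* testes. The part of other cells in the Y-linked values was not tested. Without control replicate 1, the control array with the least accessory gland signal, the median log2 difference of the Y-linked probe sets was -3.01 in *Nxt1* and -2.96 in *aly* testes.

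Genes near the median profile of the 7 detected Y-linked probe sets were looked for over the 9 arrays. The measure was the root mean square distance of log2 signals, less the control mean, from that profile. Of the members, *kl-2* (a) lay 0.12 from it, and the others between 0.53 (*kl-3*) and 1.68 (*Pp1-Y2*). A gene near the profile is thus near *kl-2* (a) and not near each Y-linked gene. The 5 nearest were *atlas* (0.12), *CG12439* (0.15), *CG32591* (0.17), *Tpl94D* (0.20) and *CG44836* (0.21), which lie on chromosome arms 2R, 2L, X, 3R and 3L. *atlas* had mean signals of 2936 in control, 279 in *aly* and 193 in *Nxt1* testes, log2 differences of -3.94 in *Nxt1* and -3.40 in *aly* testes. *Tpl94D* had 4184, 449 and 314, log2 differences of -3.74 and -3.22, so that its mutant signals stayed above the floor.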

How the data were processed

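Per the labels, the authors processed the scans with GCOS and RMA, and deposited 1 intensity for each probe set and array, on a linear scale (background correction, normalisation between arrays and summary of each probe set; versions not given in the sources used here). Of 18952 probe sets, 183 controls were left out. Of the remaining 18769, 13634 had 1 gene, 414 several and 4721 none by the platform annotation with symbols updated through the RefSeq gene table of the Release 6 plus ISO1 MT assembly, and 0 value columns belonged to other samples. The log2 of each intensity was fitted with limma 3.58.1 (lmFit, eBayes) in R 4.3.3 on all 9 arrays, with 1 mean per genotype, two-sided tests and Benjamini-Hochberg adjustment over all probe sets (threshold 0.05). The fit was tested on simulated data. The precision is limited by the 3 arrays per genotype, which correlated at 0.990 to 0.997 within genotypes and were not identical. The floor was the brightest of 27 bacterial probe sets on each array.

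The genes named are the 10 members with every probe set, the targeted genes, from each companion list the 3 with the largest difference in each mutant among those that passed and those moving against the Y-linked genes, and the 5 genes nearest in pattern. Other genes of the lists are given as counts. Of the cyst and hub, accessory gland and muscle lists the rule's genes are not named, and these lists are given by their median signal, with counts for the cyst and hub list. *m-cup* and *f-cup* were named as exceptions after their values were seen, and *Ppr-Y* and *CG40245* were named as the further Y-linked and the ambiguous probe set. The members, lists and tests were chosen with earlier results of these data known, and the comparisons of both mutants with control share the control arrays. A gene was represented by its brightest probe set in the lists.

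Alternatives tried were centrings on 43 ribosomal protein probe sets, on *CG3927* or on hybridisation controls, floors at the array quartile, median or brightest bacterial probe set, log2(signal + 32), removal of dim probe sets, 1 probe set per gene, linear means, eBayes with trend and robust, the replicate number as a block, adding the probe set of ambiguous name, and leaving out each array. The hybridisation centring, the bacterial floor and leaving out the probe sets at the floor were chosen after seeing the data. Figures were drawn with Python 3.11.15, pandas 2.3.3 and matplotlib 3.10.9. No sequences were used here. The RNAi target *tin* had no probe set of its own and was not analysed here.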

Additional observations from a re-analysis of the deposited data

Results flagged for a closer look

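The effects of 2 probe sets differed between the mutants. The probe set annotated with *CG40245* had a log2 difference of 2.22 between *Nxt1* and *aly* testes (limma, adjusted p = 2.92e-06), with all 3 *Nxt1* arrays above all 3 *aly* arrays, and at least 2.29-fold with the *aly* arrays at the floor. It stands for either *WDY* or the pseudogene *CR45931* and entered none of the counts of Y-linked genes, yet its mean signal of 190 ± 14.6 (SD, n = 3) in *Nxt1* testes exceeded that of 70.7 ± 15.8 in control testes. The *WDY* probe set itself went the other way in *Nxt1* testes (log2 difference -2.60 from control), and the cause of the disagreement was not tested. The *kl-2* probe set (a) had a log2 difference of -0.35 between *Nxt1* and *aly* testes (limma, adjusted p = 0.0163). All 6 of its mutant arrays were at the floor, so the signals do not measure a difference in RNA.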

How the results depend on the processing

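The number of Y-linked probe sets lower than control stayed between 6 and 9 in *Nxt1* and in *aly* testes under every alternative with a test, and the ratio of linear means gave no such count since it has no test. With ribosomal protein, *CG3927* and hybridisation control centring, 77.2%, 69.1% and 13.0% of all probe sets were lower in *Nxt1* testes. In *aly* testes these shares were 75.6%, 74.1% and 71.1%. Centring shifted all probe sets by -1.11 (ribosomal proteins), -0.77 (*CG3927*) and 0.32 (hybridisation controls) in *Nxt1* minus control, by -1.20, -1.14 and -1.12 in *aly* minus control, and by 0.09, 0.36 and 1.44 in *Nxt1* minus *aly*. The share of calls that were lower moved from 41.5% to 87.1%, 80.4% and 24.5%, from 31.3% to 85.1%, 83.8% and 85.3%, and from 65.1% to 54.6%, 26.5% and 1.79%. The median log2 difference from control in *aly* testes became -4.22, -4.16 and -4.14 with these centrings, -3.52 with dim probe sets left out, with 1 probe set per gene or without the probe sets at the floor, -2.17 with the floor at the array median and -2.43 with the bacterial floor. In *Nxt1* testes it became -4.18 and -3.84 with the ribosomal and *CG3927* centrings, -3.87 with dim probe sets left out, 1 probe set per gene or without those at the floor, and -2.04 with the floor at the array median. Falls of 16 fold or more numbered 5 in each mutant with ribosomal protein centring, 1 in each with the floor at the array median, and 2 in *Nxt1* and 1 in *aly* testes with the bacterial floor. The share of all probe sets at 16 fold under these settings is not given here, so these counts are not read as a result about the Y-linked genes. Between the mutants the median changed sign to 0.20 with *CG3927* centring, 1.29 with hybridisation control centring and 0.13 with the floor at the array median. The count higher in *Nxt1* than *aly* testes was 2, 9 and 3 in these, and 1 with *CG40245* added. With the *CG3927* and hybridisation control centrings, 37.1% and 92.7% of all probe sets passed as higher. The count lower was 0 with each centring, with the floor at the array median and with log2(signal + 32). It was 4 with the floor at the lower quartile and 7 with the bacterial floor. The level of each floor differed between the mutants. Where both mutants were under a floor, as for the 0.13 above, the difference is that of the floor levels and not of the gene. The counts with floors are therefore not read as a result about these genes. Leaving out each array in turn gave counts of 0 to 2 lower (2 without *aly* replicate 3, with *Pp1-Y2*, and 0 without *Nxt1* replicate 3) and 0 to 1 higher (1 without *aly* replicate 2, *WDY*). The medians then ranged from -3.13 to -2.98 in *Nxt1*, from -3.11 to -2.87 in *aly* testes and from -0.20 to -0.07 between them.

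Single calls changed sign for *kl-2* (b) in *Nxt1* testes (0.0075, floor at the array median) and for *CG40245* in *aly* testes (0.20, bacterial floor). The difference of *kl-2* (a) between the mutants became 0.0089 with *CG3927* centring, 1.09 with hybridisation control centring and 0.13 with the floor at the array median. Each centring moved every probe set by the same amount, and each floor replaced lower signals by a level that differed between arrays. These signs thus follow from the scale or the floor level. Deviations of equally numbered arrays correlated between -0.23 and 0.35. Arrays of unequal number were not compared, so these values cannot tell whether a replicate number marks a batch. With the replicate number as a block in limma, 2 probe sets were lower in *Nxt1* than *aly* testes, with *Pp1-Y2* added (adjusted p = 0.0256), and no other Y-linked call changed. Of the counts for companion lists under the alternatives, 196 moved by over 1.5 times and 1736 did not. Among the Y-linked probe sets, *ARY* was the one above the floor on all arrays of both mutants.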
